A study of Danio rerio with 16 samples.

Results

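Neutrophils taken after a fin wound were compared between cells that came from the rostral blood island (RBI) and cells that came from the caudal hematopoietic tissue (CHT) of zebrafish embryos. A droplet barcode was taken as a neutrophil when it held at least 1000 unique molecular identifiers (UMIs, each counting 1 captured transcript), 300 to 7500 genes, at most 10% of UMIs from mitochondrial genes, at least 1% of UMIs from lyz, and at most 2 UMIs in all from the macrophage genes mfap4, mpeg1.1, marco, fgl2a, lgals3bpb and c1qb. This gave 1232 RBI-derived and 977 CHT-derived neutrophils, together 2209 of the 4554 cells that passed the limits on UMIs, genes and mitochondrial UMIs in the cut libraries. The series held 7599 such cells, of which 3833 were neutrophils by the same rule, and 957 RBI-derived and 667 CHT-derived neutrophils came from embryos that were not wounded.

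All groups were Tg(mpx:Dendra2) embryos, in which the mpx promoter drives a green protein that violet light turns red. The head was photoconverted at 34 and 44 h post fertilization (hpf), the caudal fin was transected at 54 hpf in the cut groups and left whole in the normal groups, and pooled whole embryos were dissociated at 57 hpf, 3 h after the cut. Red cells were sorted as RBI-derived and green cells as CHT-derived, so that the colour records where a cell lay during photoconversion, and the green gate takes any Dendra2-positive cell that had not been under the light. Each of the 4 groups was a single single-cell 3' library, since the 4 entries of a group share 1 count matrix, and no difference has a replicate check. Levels are therefore given as CPM, the summed UMIs of the neutrophils scaled to a common library total, with exact 95% intervals that cover counting error only.

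Neutrophils are short-lived granulocytes that leave their site of production, crawl to wounds and infections, and release granule enzymes, oxidants and cytokines there. In zebrafish embryos the first of them arise from primitive myeloid cells that spread from the RBI over the yolk and into the head, while the CHT houses the later stem and progenitor cells and makes neutrophils beside macrophages, erythrocytes and thrombocytes. Secreted and granule proteins are folded in the endoplasmic reticulum (ER) by chaperones such as hspa5 (BiP), which cells raise when the folding load grows.

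The cells carried the defining neutrophil transcripts. In the RBI-derived cut neutrophils mpx, which codes for myeloperoxidase, was found in 1194 of 1232 cells and the granule protease gene npsn in 1230. In the CHT-derived cut neutrophils the same genes were found in 882 and 972 of 977 cells. The cells were chosen by these lyz and macrophage UMIs, which are given as a description. The lyz share had a median of 7.39% in the RBI-derived and 10.2% in the CHT-derived cut neutrophils. Just inside the limit of 1%, the 5 nearest cells held 1.05% to 1.13% lyz in the RBI-derived and 1.17% to 1.22% in the CHT-derived library, and the 5 nearest barcodes outside it held 0.950% to 0.979% and 0.840% to 0.945%. At the macrophage limit, 8 RBI-derived and 91 CHT-derived neutrophils held exactly 2 UMIs of the 6 genes, and 1 and 84 further barcodes were left out with 3. Cells of 1000 to under 2000 UMIs lay nearest to free RNA, the RNA that leaks into all droplets and was read from barcodes of 10 to 100 UMIs. Their median lyz share was 4.69% in the 194 RBI-derived and 3.94% in the 220 CHT-derived cells, beside 5.04% and 3.45% in the free RNA, so the label rests on little there. Among cells of 2000 to under 4000 UMIs the shares were 6.77% and 8.68%.

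The 4 libraries held 7409098 to 17303744 UMIs, and the neutrophils of the RBI-derived and CHT-derived cut libraries held 4451180 and 4668364 UMIs, with medians of 3528 and 4513 per cell. They made up 75.6% of the cells of the RBI-derived and 33.4% of the cells of the CHT-derived cut library. No barcode was shared between the cut pair. RNA of other cell types was unequal between the neutrophils of the cut libraries. The 26 macrophage markers summed to 122 CPM in RBI-derived and 485 CPM in CHT-derived neutrophils, where 4 and 0 of them were at 0 (c1qb, irf8, cd74a and grn2 in the former). The 23 muscle markers summed to 60.7 and 667 CPM, with 8 and 0 at 0. The muscle actin actc1b, for example, had no UMI in RBI-derived and 349 in CHT-derived neutrophils. Globins ran the other way, at 1214 and 233 CPM for 10 erythroid markers, but a single RBI-derived barcode held 4942 of the 5405 erythroid UMIs. Free RNA was estimated at 19.9% of the RBI-derived UMIs from globins, 1.70% without that barcode and 0.997% from 5 muscle genes, against 9.24%, 9.15% and 5.50% of the CHT-derived UMIs. The part that free RNA plays in each gene below is given where it is large and was not tested otherwise.

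More genes were higher in CHT-derived than in RBI-derived neutrophils after the cut. Of 6353 genes with at least 50 UMIs over both, 123 were called higher in RBI-derived neutrophils (1.94%) and 388 were called lower (6.11%), where a call asks for a fold of at least 2 and an interval that excludes no difference. Together these were 8.04% of the genes. In the unwounded pair 122 of 6477 genes were called higher (1.88%) and 212 lower (3.27%), together 5.16%. The median log2 ratio of all 6353 genes was -0.05. In 64 of the 388 genes called lower, free RNA by the globin estimate could give over 50% of the CHT-derived level, and in 7 of the 123 called higher it could give over 50% of the RBI-derived level, at a share that rests on the single globin-rich barcode. By the muscle estimate these counts were 40 and 0. The 123 included 6 of the 10 erythroid markers. Without the globin-rich barcode 117 genes were called higher, all of them among the 123, and 388 were called lower. Of the genes called higher, 109 were measurable in unwounded embryos and 96 of them were also higher in RBI-derived neutrophils there, against 41.4% of the 6056 genes measured in both pairs. Of the genes called lower, 319 were measurable and 302 were also lower, against 58.6%. These counts go by sign alone. With an unwounded interval that excludes no difference they were 72 of 109 and 216 of 319. Only 36 and 103 were also called in the unwounded pair, which was not matched for depth. When only cells of 2000 to under 6000 UMIs were taken, a range chosen after seeing the data because the libraries differ in depth, 83 genes were called higher and 91 lower.

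The genes furthest above in RBI-derived neutrophils included a cytokine, a gelatinase and transcription factors. The type 2 cytokine gene il4 (ENSDARG00000087909) was at 1058 CPM in RBI-derived and 219 CPM in CHT-derived cut neutrophils, and at 1768 and 563 CPM in the unwounded ones. The RBI-derived library was thus the higher of each pair, by 4.82-fold after the cut (log2 ratio 2.27, interval 2.17 to 2.37) and by a log2 ratio of 1.65 without it. Thinned to 1000 UMIs a cell, an il4 UMI was held by 39.9% of the RBI-derived cells (95% interval 37.1% to 42.6%) and by 13.3% of the CHT-derived cells (11.2% to 15.6%), or by 58.6% and 25.4% unthinned. Barcodes that should lack il4 were well below, at 3.52% of 142 macrophage-marked and 4.84% of 62 neural-marked cells of the RBI-derived library and 0.601% of 832 and 0.518% of 386 in the CHT-derived library. The 10 cells with the most il4 held 26.9% of the il4 UMIs in the CHT-derived library and 9.68% in the RBI-derived library. More RBI-derived cells held il4, so these shares do not compare how evenly it was spread among the cells that held it.

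The matrix metalloproteinase gene mmp9 (ENSDARG00000042816), whose product cleaves gelatin and collagen, held the most UMIs of these genes. It stood at 7610 CPM in RBI-derived and 2616 CPM in CHT-derived cut neutrophils, and at 5993 and 3061 CPM in unwounded ones. The order was the same in both pairs, with a log2 ratio of 1.54 (1.51 to 1.57) after the cut and 0.97 (0.94 to 1.00) before it. An mmp9 UMI was found in 96.8% of RBI-derived and 78.0% of CHT-derived thinned cells (98.9% and 90.2% unthinned), beside 24.6% and 11.78% of the macrophage-marked cells. The collagenase gene mmp13a, counted over several gene identifiers, was nearly even, at 9332 and 8182 CPM. The list of metalloproteinases, adam proteases and their timp inhibitors had 8 measured genes, of which mmp9 alone was called.

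Among regulators, prdm1a (ENSDARG00000002445), which codes for the repressor Blimp-1, was at 155 CPM in RBI-derived and 49.3 CPM in CHT-derived cut neutrophils, and at 129 and 82.7 CPM without a cut. Its log2 ratio was 1.66 (1.44 to 1.88) after the cut and 0.64 (0.46 to 0.81) before. In unwounded cells of 2000 to under 6000 UMIs, thinned, prdm1a was at 161 CPM (124 to 205) and 150 CPM (93.8 to 227). The unwounded difference was thus not resolved at like depth. The nuclear receptor nr4a1, an immediate early gene, stood at 252 and 101 CPM after the cut and 335 and 171 CPM before it. It belongs to the list of AP-1 and other early response genes, of which 42 were measured, 6 were called higher in RBI-derived neutrophils (egr1, egr2a, egr3, klf2a, nr4a1 and nr4a3) and 2 lower (ier5l and mych), beside 1.94% and 6.11% of all genes. The list's median log2 ratio was 0.24, beside -0.05 for all genes, but in cells of 2000 to under 6000 UMIs it turned to -0.09 and 1 gene was called higher. Of 29 myeloid transcription factor genes, 1 was called higher, runx3 at 264 and 132 CPM, and 3 were called lower.

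The remaining genes of the upper end were of mixed function. The receptor subunit gene csf2rb, the shared beta chain of receptors for cytokines such as GM-CSF, was at 89.4 CPM in RBI-derived and 30.2 CPM in CHT-derived cut neutrophils and at 58.6 and 11.69 CPM in unwounded ones. In unwounded cells of 2000 to under 6000 UMIs, thinned, csf2rb was at 44.6 CPM (26.4 to 70.4) and 27.2 CPM (7.41 to 69.7). Its unwounded difference was thus not resolved in that range. The glucose transporter gene slc2a3b was at 279 and 119.5 CPM after the cut and 234 and 138 CPM before it. In unwounded cells of 2000 to under 6000 UMIs, thinned, slc2a3b was at 302 CPM (251 to 361) and 218 CPM (149 to 307). Those intervals overlapped. With the aldolase gene aldoab (log2 ratio 1.08) slc2a3b was called higher among 27 measured genes of glycolysis and neighbouring pathways, where ldhba and taldo1 were called lower. The immunoglobulin-domain gene dicp1.3-4, the semaphorin gene sema6d, the protein kinase C gene prkcea, the Notch-modifying glycosyltransferase gene mfng, the adenylate kinase gene ak1 and the tetraspanin gene cd82b had log2 ratios of 1.90, 1.71, 1.64, 1.45, 1.37 and 1.23 after the cut. In unwounded embryos these were 1.201, 1.41, 1.32, 1.43, 1.32 and 1.13, so that each stood on the same side in both pairs. Among these genes csf2rb and mfng had log2 ratios of 0.96 and 0.92 in cells of 2000 to under 6000 UMIs, and slc2a3b and ak1 of 0.95 and 0.73 in thinned cells. The functions of si:ch73-359m17.7 (log2 ratio 2.45, 1.92 to 3.01) and si:ch211-165d12.4 (1.75, 1.43 to 2.07), also at the upper end, are not given by the files.

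The gene erc2, known as a scaffold of presynaptic active zones, was set apart by its unwounded levels. It was at 70.09 CPM in RBI-derived and 24.0 CPM in CHT-derived cut neutrophils, but at 51.7 and 55.7 CPM in unwounded ones. The log2 ratio was 1.55 (1.23 to 1.87) after the cut and -0.11 (-0.36 to 0.14) before it, and the CHT-derived cut library was the only low value of the 4.

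**Figure D1:**
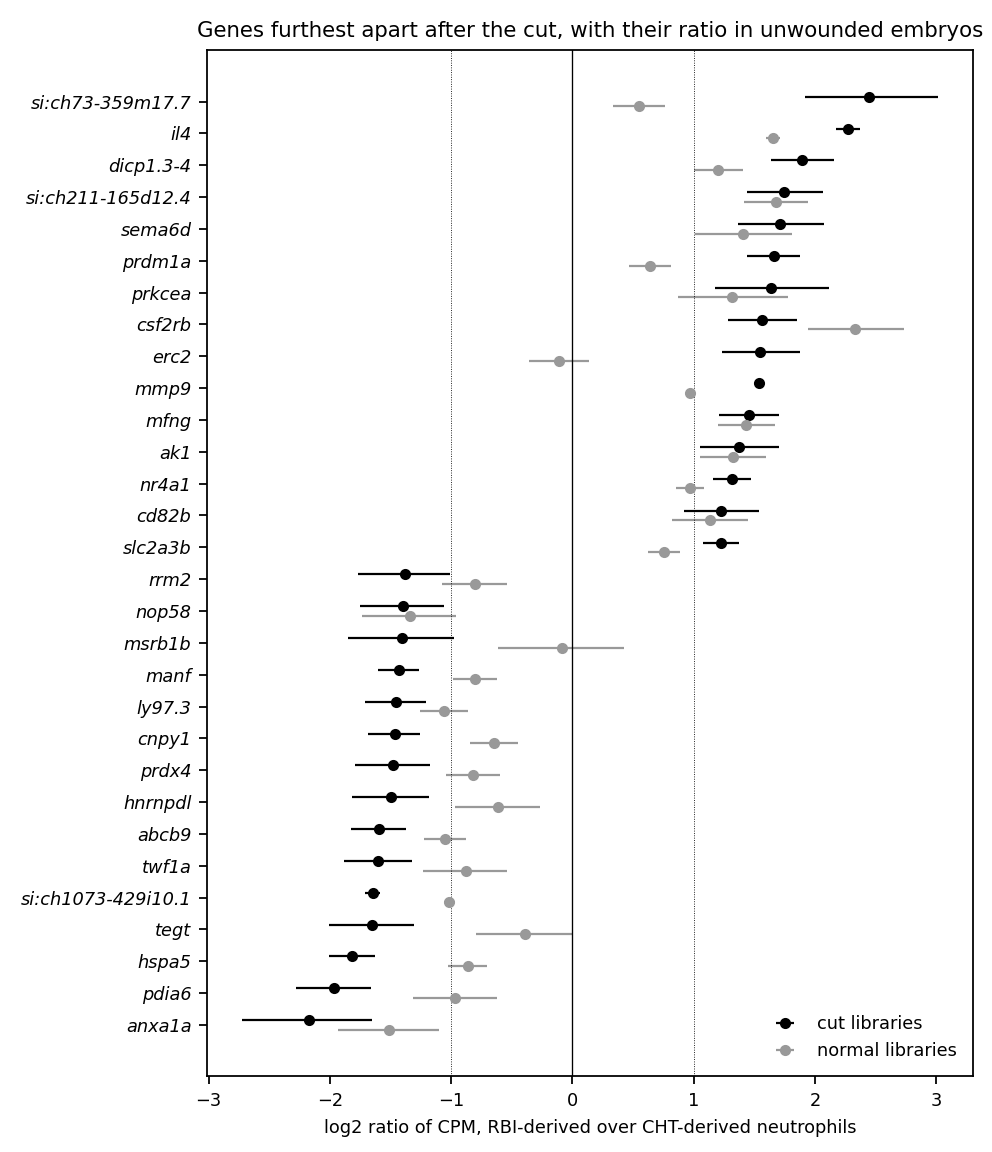
Log2 ratio of CPM, RBI-derived over CHT-derived neutrophils, for the 15 highest and 15 lowest genes of the naming rule, with 95% counting intervals (black, cut libraries; grey, normal libraries; dotted lines, 2-fold). The cut ratios run from 2.45 for si:ch73-359m17.7 to -2.17 for anxa1a, and erc2 is the only one of the upper 15 whose unwounded ratio lies below 0.

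At the other end, genes that fold and move proteins through the ER were higher in CHT-derived neutrophils. The chaperone gene hspa5 (ENSDARG00000103846) was at 65.8 CPM in RBI-derived and 231 CPM in CHT-derived cut neutrophils, and at 95.6 and 174 CPM in unwounded ones. By summed CPM the CHT-derived library was the higher of each pair. The log2 ratio was -1.81 (-2.005 to -1.63) after the cut and -0.86 (-1.03 to -0.70) before it. In unwounded cells of 2000 to under 6000 UMIs, thinned, hspa5 was at 126 CPM (94.0 to 166) in RBI-derived neutrophils. In CHT-derived ones it was at 197 CPM (132 to 283). These intervals overlapped, so its unwounded difference was not resolved at like depth. Of the hspa5 UMIs in thinned cells, 34 of 94 RBI-derived and 158 of 311 CHT-derived ones came from cells of 1000 to under 2000 UMIs. The neutrophil label rests on little in those cells. An hspa5 UMI was found in 7.22% of RBI-derived and 21.8% of CHT-derived thinned cells (19.8% and 47.7% unthinned). Macrophage-marked cells held it more often, in 47.2% and 63.1%, and free RNA by the globin estimate could give 41.2 of the 65.8 and 70.19 of the 231 CPM. With that free RNA subtracted the log2 ratio was -2.53, but the RBI-derived share rests on the single globin-rich barcode, and without it the subtracted ratio was -1.48.

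The disulfide isomerase gene pdia6 (ENSDARG00000009001) was at 24.5 CPM in RBI-derived and 95.8 CPM in CHT-derived cut neutrophils, and at 21.4 and 41.8 CPM in unwounded ones. Its log2 ratio was -1.97 (-2.28 to -1.66), and the CHT-derived cut library stood above the other 3. In unwounded cells of 2000 to under 6000 UMIs, thinned, pdia6 was at 27.2 CPM (13.6 to 48.7) in RBI-derived neutrophils. In CHT-derived ones it was at 13.6 CPM (1.65 to 49.1), so its unwounded order was not resolved at like depth. The secreted ER stress factor gene manf was at 85.8 and 231 CPM after the cut and at 78.3 and 136 CPM before it, a log2 ratio of -1.43 (-1.60 to -1.26). The ER membrane gene tegt, a BAX inhibitor, was at 20.0 and 62.8 CPM, and at 18.8 and 24.7 CPM without a cut. The ER peroxiredoxin gene prdx4 had a log2 ratio of -1.48 after the cut and -0.82 before it. By summed CPM, which is not matched for depth, the CHT-derived neutrophils were higher in both pairs in all these genes. The ratios by summed CPM were further from 0 after the cut. The genes were named for their low cut ratios, so the choice itself favoured this order. In cut cells of 2000 to under 6000 UMIs the ratios of manf (-0.78) and prdx4 (-0.68) were under 2-fold.

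As a group, 52 of 53 measured ER and secretory genes had log2 ratios below 0, 15 were called lower in RBI-derived neutrophils (beside 6.11% of all genes) and 0 were called higher. The median log2 ratio was -0.75, and -0.52 in unwounded embryos. The 15 were calr, calr3a, creld2, hsp90b1, hspa5, kdelr2b, lman1, manf, pdia3, pdia4, pdia6, rpn2, sdf2l1, srp14 and ssr1, which code for chaperones and disulfide isomerases, for cargo and retrieval receptors, and for subunits of the signal recognition particle, the translocon and the glycosylation machinery. Summed over the list the level was 9792 CPM in RBI-derived and 13815 CPM in CHT-derived cut neutrophils, and 9318 and 11325 CPM in unwounded ones. The CHT-derived cut library was the highest of the 4. The transcription factor gene xbp1, which drives the unfolded protein response, was at 399 and 689 CPM after the cut and 565 and 824 CPM before it, below 2-fold in both pairs. In cut cells of 2000 to under 6000 UMIs the list's median was -0.29 and 4 genes were called lower. In thinned unwounded cells the sum depended on depth. It was 9191 CPM in RBI-derived and 8571 CPM in CHT-derived cells of 1000 to under 2000 UMIs. From 2000 to under 4000 UMIs the sums were 9005 and 10120 CPM, and from 4000 to under 8000 UMIs 9284 and 9133 CPM. Cells of 8000 UMIs or more had 9325 and 11673 CPM. The intervals overlapped in the classes from 1000 and from 4000 UMIs.

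Proteasome and cell cycle genes lay on the same side. Of 45 measured proteasome genes 43 were below 0 and 6 were called lower in RBI-derived neutrophils (psmd2, psmd4a, psmd4b, psmd7, psmd10 and psme3), beside 6.11% of all genes, with a median log2 ratio of -0.65. The regulatory subunit gene psmd4b, for example, was at 21.3 and 48.6 CPM. Of 42 measured S phase and mitosis genes 38 were below 0, 10 were called lower (again beside 6.11%) and 0 higher, with a median of -0.64. These included the kinase gene cdk1 (21.6 and 55.1 CPM after the cut, 37.4 and 55.7 CPM before it) and the replication nuclease gene fen1 (7.86 and 27.6 CPM, 14.3 and 29.7 CPM). Cells with at least 2 UMIs of this list after thinning were 139 of 1232 RBI-derived (11.3%) and 205 of 977 CHT-derived neutrophils (21.0%). These calls depended on the depth of the cells taken. In cells of 2000 to under 6000 UMIs 0 genes of either list were called lower, the median of the S phase and mitosis list was 0.24 and that of the proteasome list was -0.43.

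Further genes higher in CHT-derived neutrophils were of mixed function. The annexin gene anxa1a (ENSDARG00000026726) was at 8.31 and 37.5 CPM after the cut and 13.6 and 38.8 CPM before it. The gene si:ch1073-429i10.1, whose function the files do not give, was abundant, at 637 and 1994 CPM after the cut and 1125 and 2275 CPM before it, and its cut log2 ratio of -1.65 was -0.83 in cells of 2000 to under 6000 UMIs. The lysosomal peptide transporter gene abcb9 and the actin monomer binding gene twf1a both had a log2 ratio of -1.60, that of abcb9 being -0.92 in cells of 2000 to under 6000 UMIs. The chemokine receptor gene cxcr4b, which holds neutrophils in hematopoietic tissue, was at 122 and 270.1 CPM after the cut and 141 and 286 CPM before it, a log2 ratio of -1.14 (-1.29 to -0.998) and -1.02 (-1.15 to -0.89). Its ratio was nearly the same in wounded and unwounded embryos. The progenitor gene myb, at 5.62 and 25.7 CPM, and the sulfotransferase gene sult2st2, at 4.04 and 26.8 CPM, were low in both libraries. The ribonucleotide reductase gene rrm2 and the methionine sulfoxide reductase gene msrb1b, each summed over more than 1 gene identifier, had log2 ratios of -1.38 and -1.40, but rrm2 was at -0.17 in cells of 2000 to under 6000 UMIs and msrb1b at -0.59 in thinned cells.

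**Figure D2:**
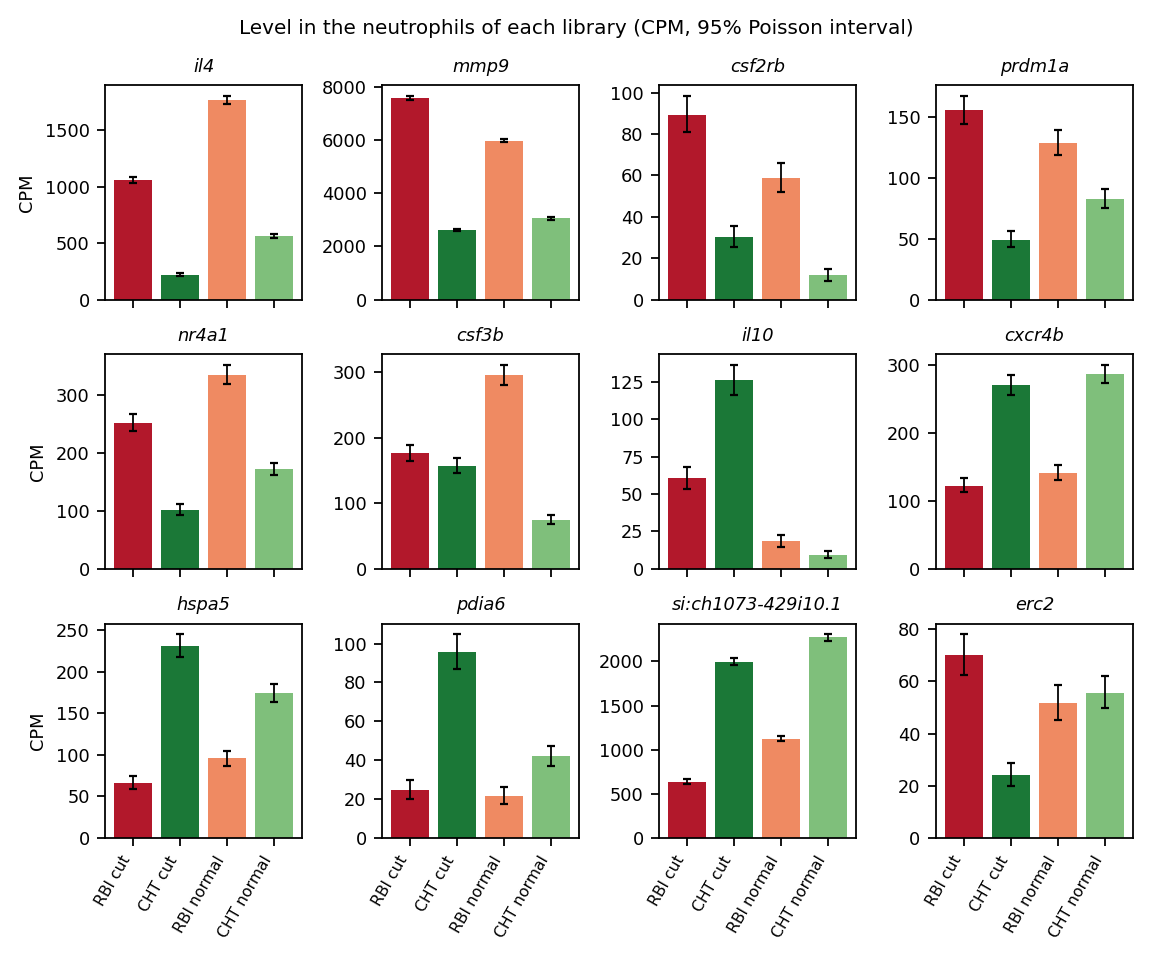
CPM of 12 genes in the neutrophils of the 4 libraries (bars, with 95% Poisson intervals, axes from 0). These sums are not matched for depth. In them il4, mmp9, csf2rb, prdm1a and nr4a1 are higher in RBI-derived neutrophils of both pairs. The genes hspa5, pdia6, cxcr4b and si:ch1073-429i10.1 are lower, and csf3b, il10 and erc2 change order or size between pairs.

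Wound-related cytokines did not follow 1 pattern. The granulocyte colony stimulating factor gene csf3b (ENSDARG00000098752) was at 176 CPM in RBI-derived and 157 CPM in CHT-derived cut neutrophils, but at 296 and 75.1 CPM in unwounded ones. By summed CPM the pair that differed 3.94-fold without a wound was nearly even after it, with log2 ratios of 1.98 (1.82 to 2.14) and 0.17 (0.02 to 0.32). The ratio was therefore smaller by 1.81 after the cut on the log2 scale (1.59 to 2.02, counting error only). A csf3b UMI was present in 11.12% of RBI-derived and 12.18% of CHT-derived thinned cells (17.6% and 23.4% unthinned), below the macrophage-marked cells at 23.2% and 30.6%. Both shares were above the neural-marked cells, at 0 of 62, taken as up to 4.84% by a floor of 3 counts, and 1.55%. Of the csf3b UMIs in thinned cut cells, 118 of 305 RBI-derived and 112 of 248 CHT-derived ones came from cells of 1000 to under 2000 UMIs. The neutrophil label rests on little there, and the log2 ratio was 0.26 (-0.13 to 0.64). From 2000 to under 4000 UMIs it was -0.75 (-1.18 to -0.32), and from 4000 to under 8000 UMIs -0.23 (-0.81 to 0.34). The cut ratio of csf3b ran from -0.25 to 0.42 over the processing alternatives, so its sign after the cut is not settled.

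The anti-inflammatory cytokine gene il10 (ENSDARG00000078147) changed order by summed CPM. It was at 60.7 CPM in RBI-derived and 126 CPM in CHT-derived cut neutrophils, and at 18.2 and 9.15 CPM in unwounded ones. Both cut libraries lay above their unwounded counterparts, by 3.34-fold in RBI-derived and 13.8-fold in CHT-derived neutrophils, and the log2 ratio between origins was -1.05 (-1.27 to -0.84) after the cut and 0.99 (0.48 to 1.51) before it. In unwounded cells of 2000 to under 6000 UMIs, thinned, il10 was at 14.9 CPM (5.45 to 32.3) and 13.6 CPM (1.65 to 49.1). The unwounded order was thus not resolved at like depth. Thinned cells with an il10 UMI were 6.33% and 10.6% (16.6% and 27.9% unthinned), beside 2.11% and 8.17% of macrophage-marked cells, so the CHT-derived share is near that of its own macrophages. The inflammatory cytokine gene il1b was nearly even at 1392 and 1473 CPM after the cut and stood at 1100 and 786 CPM before it, and the tumor necrosis factor gene tnfb was at 334 and 284 CPM, and at 183 and 113 CPM before. The NF-κB regulator gene tnfaip3 had a log2 ratio of 0.69 after the cut and 1.76 before it.

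Of 11 measured cytokine genes 1 (il4) was called higher and 2 (il10 and hbegfb) lower in RBI-derived neutrophils, beside 1.94% and 6.11% of all genes. The growth factor gene hbegfb rested on 18 and 63 UMIs, and free RNA by the globin estimate could give 9.27 of its 13.5 CPM in CHT-derived neutrophils. Of 12 measured chemokine genes 0 were called higher and 5 lower, and free RNA could give most of their CHT-derived level by the globin estimate, from 77.2% for ccl35.1 to 95.5% for ccl34a.4. The chemokine gene ccl34a.4 had 67 UMIs in RBI-derived and 547 in CHT-derived neutrophils, and free RNA could give 112 of its 117 CPM in the latter by globins and 66.6 CPM by muscle genes. The neutrophil attractant gene cxcl8a, named after its values were seen, had 29 and 113 UMIs after the cut and 16 and 3 before it, and free RNA could give 80.2% of its CHT-derived cut level. The log2 ratio of ccl34a.4, -2.96, became 0.52 (-0.249 to 1.315) when free RNA was subtracted at the globin share without the globin-rich barcode. That interval includes 0, so the sign of ccl34a.4 was not resolved under this subtraction. The median of the chemokine list, -0.30, likewise turned positive there (0.15).

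Calls in the other lists can be read against 1.94% higher and 6.11% lower among all genes. None of the 10 measured NADPH oxidase genes, 79 ribosomal protein genes, 89 nuclear genes of the respiratory chain and 13 mitochondrially encoded genes was called, and their median log2 ratios were -0.03, 0.06, -0.15 and 0.12. The mitochondrially encoded genes depended on free RNA. Subtracting it at the globin share, which rests on the single globin-rich barcode, gave a median of -0.89, with 5 genes called lower and 1 higher. At the globin share without 1 barcode the median was 0.82, with 0 called lower and 4 higher. The share from muscle genes gave 0.54, with 0 called lower and 1 higher. Of 29 measured granule and defence genes 2 were called lower, with a median of -0.12. The marker genes mpx and npsn were at 3174 and 2396 CPM and at 9432 and 10372 CPM, and the reporter Dendra2 was at 13529 and 9693 CPM, all under 2-fold apart. Actin and adhesion genes had medians of 0.14 (60 genes, 0 called higher and 2 lower) and 0.29 (14 genes, 0 and 1), and the actin-binding gene coro1a was at 1194 and 1066 CPM. Of 39 measured chaperone genes, some of them shared with the ER list, 0 were called higher and 9 lower, with a median of -0.40. The counts were 0 and 4 of 41 lysosome genes (median -0.12), 0 and 2 of 16 eicosanoid genes (-0.23), 0 and 1 of 22 NF-κB genes (0.04), 1 and 1 of 20 receptor genes (0.21), 0 and 2 of 13 iron genes (-0.01), 0 and 2 of 8 sulfotransferase genes (-0.50) and 0 and 1 of 6 annexin genes (-0.16). The 4 lysosome genes were the cathepsins ctsla and ctsz, the protease lgmn and the membrane protein lamp1a. No lysosome gene was called once cells with over 5 UMIs of other types were left out, and ctsla ran from -3.29 to -0.42 with the free RNA share. The cytokine gene il34 was at 475 and 399 CPM and the gene ponzr6 at 304 and 298 CPM.

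**Figure D3:**
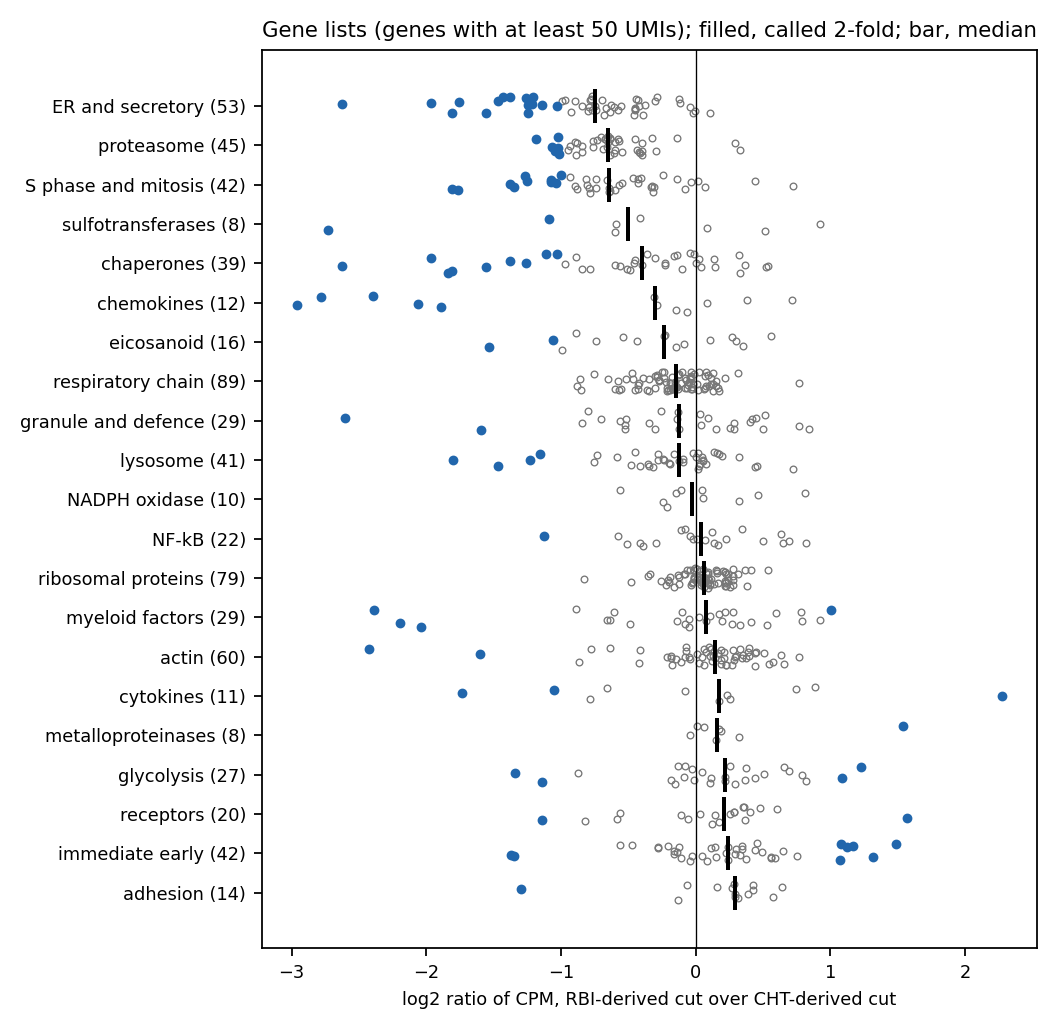
Log2 ratio of each measured gene of the gene lists (points, genes with at least 50 UMIs, vertical bar the list's median), RBI-derived cut over CHT-derived cut; filled points were called 2-fold. ER and secretory (median -0.75), proteasome (-0.65) and S phase and mitosis genes (-0.64) lie to the left, and ribosomal protein genes (0.06) gather at 0.

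The cells of each library were also split by whether they held an il4 UMI after thinning, 491 of 1232 RBI-derived and 130 of 977 CHT-derived cells. In the CHT-derived library the ER and secretory list summed to 10800 CPM in cells with il4 and 13491 CPM in cells without it. In the RBI-derived library the sums were 9670 and 9680 CPM. The level was thus lower in il4-bearing cells of the CHT-derived library, while both kinds of RBI-derived cell differed by less than counting error, and the log2 ratio between libraries was -0.16 (-0.25 to -0.07) among cells with il4 and -0.48 (-0.52 to -0.44) among cells without it. The gelatinase gene mmp9 was at 9014 CPM in RBI-derived and 4531 CPM in CHT-derived cells with il4, and at 7240 and 2583 CPM in cells without it. Both libraries had more mmp9 in their il4-bearing cells, and RBI-derived cells had more in either class. The split by il4 was not matched for depth. In thinned CHT-derived cut cells il4 was at 150 CPM under 2000 UMIs and 108 CPM from 8000 UMIs, with 500 and 256 CPM in the classes between. The ER sums were 13064 and 17438 CPM at those ends, and 11505 and 12585 CPM between. How far depth carries the differences between cells with and without il4 was not tested.

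**Figure D4:**
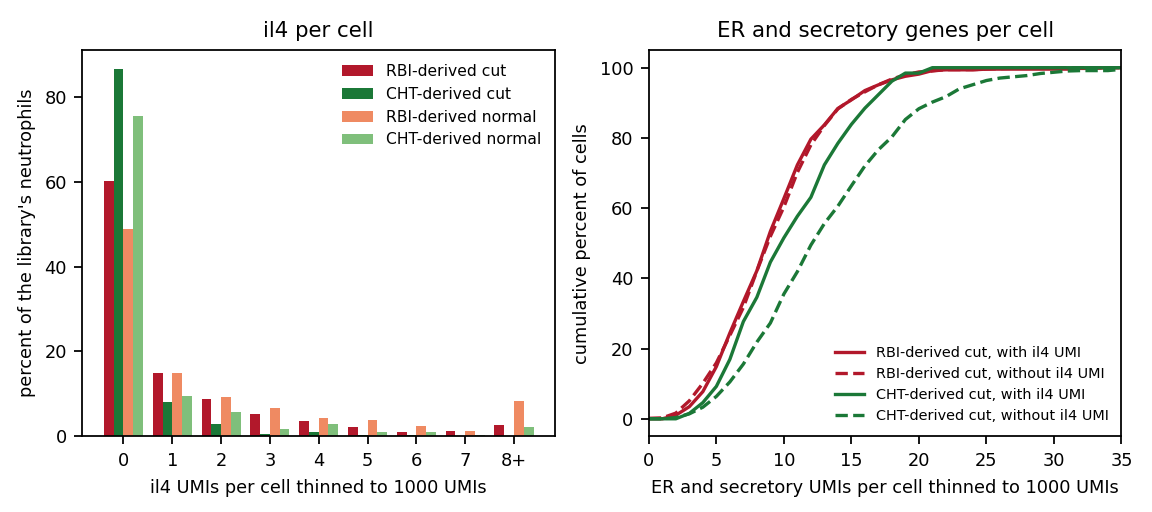
Left, percent of each library's neutrophils by number of il4 UMIs after thinning every cell to 1000 UMIs; right, cumulative percent of cells of the cut libraries by ER and secretory UMIs per 1000 (solid, cells with an il4 UMI; dashed, without). At 0 il4 UMIs lie 60.1% of RBI-derived and 86.7% of CHT-derived cut cells, and the CHT-derived cells without il4 reach furthest right.

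Depth differed between the cut libraries and moved with some of these values. Of RBI-derived neutrophils 78.7% held 2000 to under 6000 UMIs and 5.52% held 6000 or more, against 47.5% and 30.0% of CHT-derived neutrophils. With cells thinned to 1000 UMIs, il4 was at 1804, 1225, 920 and 733 CPM in RBI-derived cells of the depth classes bounded by 1000, 2000, 4000 and 8000 UMIs. In CHT-derived cells it was at 150.0 CPM in the shallowest class, had an interval of 404 to 613 CPM from 2000 to under 4000 UMIs, and was at 256 and 108 CPM in the deeper ones. The RBI-derived cells were the higher in each class. For mmp9 the values were 8768, 8115, 7407 and 5400 CPM and 2291, 3909, 3138 and 1246 CPM, again with no overlap. ER and secretory genes summed to 9325, 9315, 10322 and 11133 CPM in RBI-derived and 13064, 11505, 12585 and 17438 CPM in CHT-derived cells, so the CHT-derived cells were the higher in each class and highest in the deepest one, which held 15 RBI-derived and 130 CHT-derived cells. S phase and mitosis genes were at 448 CPM in RBI-derived and 1150 CPM in CHT-derived cells of the shallowest class, and from 2000 to under 4000 UMIs their intervals were 258 to 347 and 394 to 601 CPM. From 4000 to under 8000 UMIs they were at 843 and 544 CPM, and in the deepest class at 2067 and 1962 CPM. The CHT-derived cells were thus the higher in the shallower 2 classes and the RBI-derived cells in the next, while in the deepest the libraries differed by less than counting error. Among cut cells of 2000 to under 6000 UMIs the log2 ratios with all UMIs kept were 1.55 for il4, 1.03 for mmp9 and -1.19 for hspa5. The unwounded pair differed more in depth, with medians of 4869 and 8824 UMIs a cell. Cells of 8000 UMIs or more were 13.2% of its RBI-derived and 58.6% of its CHT-derived neutrophils. Its ratios given above were not matched for depth. In its cells of 2000 to under 6000 UMIs, thinned, il4 was at 2510 and 1054 CPM. There mmp9 was at 6795 and 4558 CPM, and csf3b at 463 and 184 CPM.

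**Figure D5:**
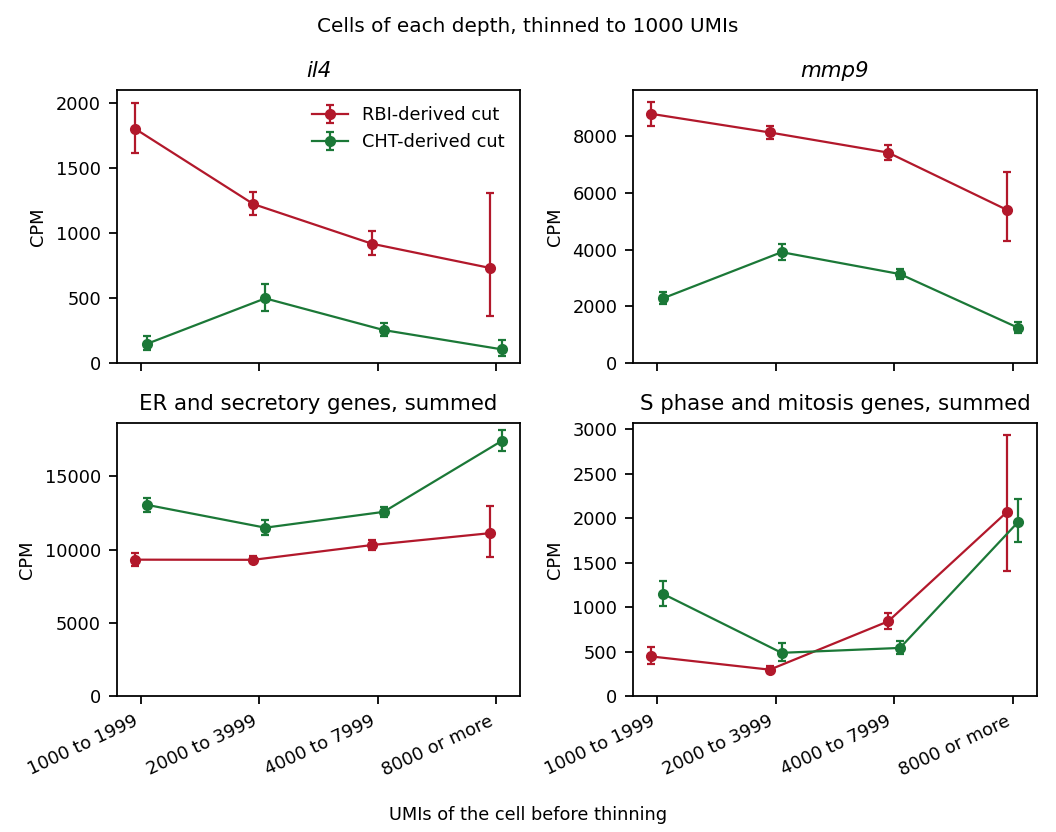
CPM of il4, mmp9 and the summed ER and secretory and S phase and mitosis genes in cells of the cut libraries by their UMIs before thinning (points with 95% Poisson intervals, cells thinned to 1000 UMIs, axes from 0). For il4, mmp9 and the ER genes the libraries keep the same order in all 4 classes, and for S phase and mitosis genes they do not.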

How the data were processed

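Single-cell suspensions of sorted red and green cells were sequenced as 4 droplet libraries, each deposited as a raw matrix of UMI counts by gene and barcode, in which the authors had counted but not normalized or filtered. The deposited counts carry a Cell Ranger 7.1.0 header, and the submitters' processing notes name GRCz11 and Seurat. RE and GR in the library labels were read as red and green. The matrices held 25433 gene features, and the 517 gene symbols with several identifiers were summed.

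Barcodes were chosen as stated in the report, with the members and gene lists chosen with earlier results of these data known. No doublet caller was run here; the macrophage limit and alternatives that drop cells with RNA of other types stand in for it. UMIs were summed per library and scaled to CPM. Poisson intervals were used for levels, Clopper-Pearson intervals for shares and conditional binomial intervals for ratios, all at 95%. Genes needed 50 UMIs over both libraries, and a call a fold of 2. With 1 library a group no test was made. Free RNA was scaled by globin or muscle genes, and shares of cells were compared after thinning to 1000 UMIs. The counting and interval code was tested on simulated data.

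Genes were named by a rule: the 15 highest and 15 lowest ratios among called genes with at least 200 UMIs, a UMI in at least 5% of cells of the higher library and under 50% of their level from free RNA; up to 4 genes furthest from 0 in each of 24 lists; and lyz, mpx, npsn, csf3b, il4, il34, ponzr6, mmp13a, coro1a and Dendra2. Other genes called in a list were named after their values were seen. Alternatives numbered 16 planned and 6 chosen after seeing the data. Python 3.11.15, numpy 2.4.6, pandas 2.3.3, scipy 1.17.1 and matplotlib 3.10.9 were used, with edgeR 4.0.16 in R 4.3.3 for TMM factors only.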

Additional observations from a re-analysis of the deposited data

Results flagged for a closer look

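For 4 named genes the order of the origins was opposite in the cut and the unwounded pair, with intervals that exclude 0 in both; the difference was not tested, since each group is 1 library. Taken as RBI-derived over CHT-derived, the log2 ratio was -1.05 after the cut and 0.99 before it for il10. It was -0.84 and 0.79 for the lysozyme gene lygl1, where free RNA by the globin estimate could give 247 of the 378 CPM of CHT-derived cut neutrophils. The cut ratio of lygl1 depended on the free RNA share subtracted. It was -2.82 at the globin share, which rests on the single globin-rich barcode, and -0.27 (-0.40 to -0.14) at the share from muscle genes. At the globin share without 1 barcode it was 0.46, on the same side as before the cut. The log2 ratios after and before the cut were 0.14 and -0.16 for the annexin gene anxa11b, and 0.16 and -0.12 for coro1a. These ratios are of sums not matched for depth. In unwounded cells of 2000 to under 6000 UMIs, thinned, il10 was at 14.9 CPM in RBI-derived and 13.6 CPM in CHT-derived neutrophils. The intervals overlapped, so its unwounded order was not resolved there.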

How the results depend on the processing

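No paired analysis was possible because the 4 entries of a group share 1 matrix and their numbers differ between groups, and for the same reason no replicate could be left out. Against 123 genes called higher and 388 lower in RBI-derived cut neutrophils, thinning gave 72 and 156, a minimum of 10 UMIs gave 248 and 962, and one of 200 UMIs gave 43 and 87. The lower calls were 254 with 0 macrophage UMIs, 207 without cells of over 5 UMIs of other types, and 91 at 2000 to under 6000 UMIs, where 60 of the 91 lower and 39 of the 83 higher calls were shared with the reported ones. Higher calls were 24.1% of all calls, and 34.1% without cells of other types (107 of them), 36.0% with free RNA subtracted at the globin share without 1 barcode (147 higher, 261 lower) and 47.7% at 2000 to under 6000 UMIs. TMM factors gave 141 and 342. List medians changed sign for chemokines (0.0725 without cells of other types, 0.15 under that subtraction) and, at 2000 to under 6000 UMIs, for receptors (-0.077), early response genes (-0.088) and S phase and mitosis (0.24). The ratio of ccl34a.4 moved to 0.52 under that subtraction, with an interval that includes 0 (-0.249 to 1.315). Medians nearer 0 also crossed it, at their furthest -0.37 for cytokines, -0.24 for NF-κB, -0.05 for metalloproteinase, -0.13 for myeloid transcription factor, 0.16 for granule, 0.31 for iron, 0.02 for NADPH oxidase and -0.89 for mitochondrially encoded genes. Of 657 values of the 30 genes named by size, 0 changed sign, and 18 genes kept 2-fold under all alternatives run. The genes abcb9, ak1, cnpy1, csf2rb, manf, mfng, msrb1b, nop58, prdx4, rrm2, si:ch1073-429i10.1 and slc2a3b did not keep it. The 30 genes were named for their large ratios in these same cells, so the choice itself made a change of sign unlikely. The log2 ratio ranged from 1.55 to 2.37 for il4, 1.03 to 1.60 for mmp9, -2.53 to -1.19 for hspa5 and -1.65 to -0.86 for il10. With 1 library a group, animals, sorting and library preparation cannot be told apart from origin.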
